A study of Caenorhabditis elegans with 2 samples.

Results

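Genes for translation initiation and elongation factors were scored for binding of SPR-3, a C2H2 zinc finger protein of Caenorhabditis elegans. They were the protein-coding genes whose names begin with eif-, ife- or eef-, plus ifg-1, iff-1 and iff-2, and numbered 39 of 19973 protein-coding genes. Earlier results of these data were known when the genes were chosen. The choice itself went by name and used no measured value. Genes of the same machinery that carry other names, such as the eIF3 subunit gene egl-45 and the eIF4A gene inf-1, were therefore not among them. The other 19934 protein-coding genes served for comparison.

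The binding data came from chromatin immunoprecipitation and sequencing (ChIP-seq) of whole worms of 1 group. Strain OP703 carried unc-119(tm4063) together with wgIs703, a transgene that holds the tagged fusion spr-3::TY1::EGFP::3xFLAG and an unc-119(+) copy that restores the mutated gene. Worms of both sexes, synchronised by starving them as L1 larvae, were at the L4 stage (49 hours), and 2 biological replicates were precipitated. The labels describe the antibody as one to GFP, while their antibody field reads spr-3. The tagged protein came from the transgene and the genotype names no change in the endogenous spr-3, so an antibody to GFP would show the tagged protein alone. Whole animals give no information on the tissue in which a site was bound. Each of 3 candidate lists (replicate 1, replicate 2 and both pooled) held 30000 intervals, and another list held the 945 intervals that passed the authors' irreproducible discovery rate (IDR) threshold. The thresholded intervals had the 945 highest signals of the pooled list, down to 138. Signal is the authors' peak value for ChIP over control, and the same control served both replicates. No source used here gives its scaling or the depth of the libraries, so levels are compared within a list and ranks between lists, where rank 1 is the strongest of 30000.

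Protein synthesis starts when eIF2 brings the initiator tRNA to the small ribosomal subunit, the eIF4 factors recruit the capped mRNA and the large eIF3 complex holds these parts together. The elongation factor eEF1A then delivers aminoacyl-tRNAs, eEF1B recharges eEF1A with GTP, and eEF2 moves the ribosome along the mRNA. The factor eIF5A, despite its name, acts mainly during elongation, where it helps peptide bond formation at difficult sequences. Genes for these proteins are active in nearly all growing cells, and many worm genes of this kind lie in operons, in which 1 promoter serves several genes in a row.

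Translation factor promoters held a thresholded SPR-3 peak more often than the promoters of other genes. A promoter was taken as the stretch that starts 1000 bp before the annotated 5′ end and stops 200 bp after it, and a peak was placed by its summit. Of the 39 genes, 8 had a thresholded summit (20.5%, exact 95% binomial interval 9.30 to 36.5%), against 558 of 19934 other genes (2.80%). The 8 genes were iff-2, eif-3.C, eef-2, eef-1G, eif-2Bgamma, eef-1A.1, eef-1A.2 and eif-3.I. Their pooled signals lay between 148 and 402 with a median of 207, and the 558 other genes with a thresholded summit had a median of 196. So the translation factor genes stood out by how many had a peak, while the height of the peaks was near that of other bound genes.

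Candidate summits, which include the thresholded ones and weaker signal, were likewise more frequent at these promoters. A pooled candidate summit lay in the window of 27 of the 39 genes (69.2%, 52.4 to 83.0%), against 32.6% of other genes. Replicate 1 had a candidate at 24 of the 39 genes (61.5%), against 31.9% of other genes. Replicate 2 had one at 29 of the 39 genes (74.4%), against 33.2% of other genes. Both replicates had one at 23 genes (59.0%, 42.1 to 74.4%), against 20.0% of other genes. The candidates could lie anywhere in the window, so their summits need not be at the same place in both replicates. When a summit counted only for the gene with the nearest start, the pooled count was 16 of 39 genes, against 27.2% of other genes, and the count in both replicates was 13, against 15.6%. With a window of 500 bp upstream the count in both replicates was also 13, against 12.6%. At ranks 1 to 3000 of the pooled list there were summits for 10 of the 39 genes (25.6%), against 6.03% of other genes. Among the 945 strongest candidates of each replicate, 6 of the 39 genes (15.4%) had a summit in both, against 1.90% of other genes. The median pooled signal was 90.1 (interval of the median 59.6 to 148) over the 27 translation factor genes with a candidate and 64.8 over the 6502 other genes with one. Intervals here cover counting over genes and not variation between worm cultures, and the pooled list was made from the same reads as the replicate lists.

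**Figure D1:**
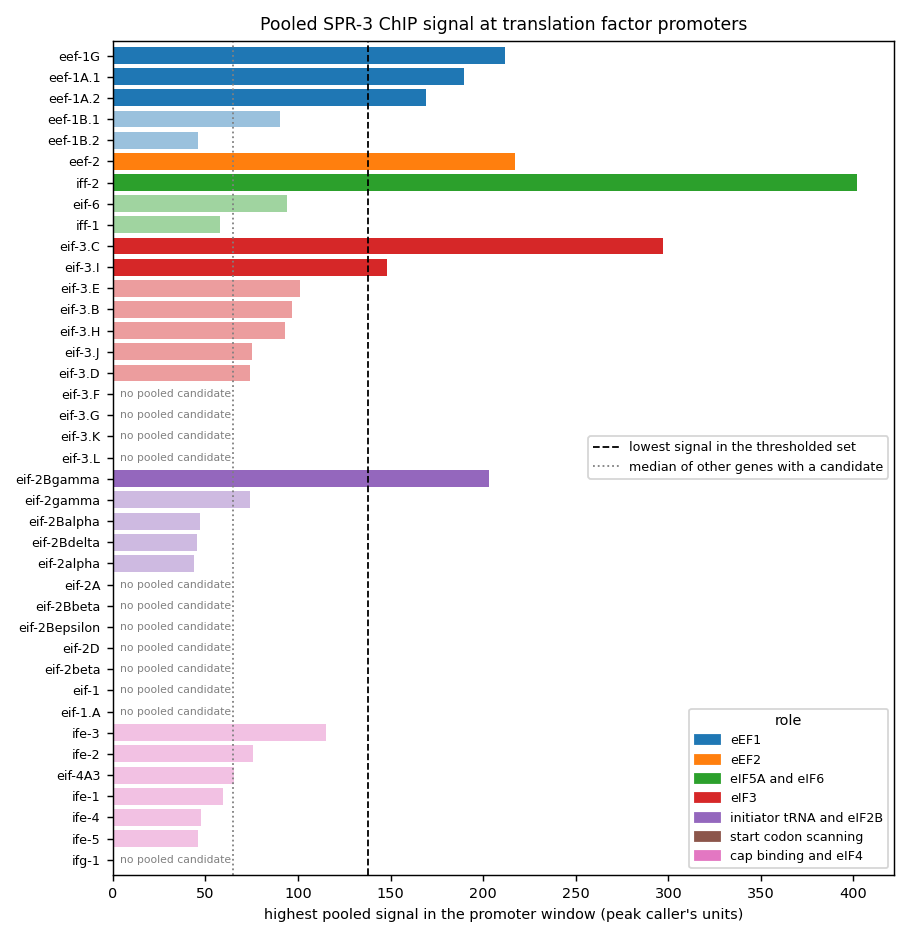
Highest pooled signal (horizontal axis, peak caller's units) in the promoter window of each of the 39 genes, grouped by role and coloured accordingly. Full colour marks the 8 genes with a thresholded summit, all right of the dashed line at 138, and the dotted line is the median of other genes with a candidate, 64.8.

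The elongation factors held the densest group of peaks. Of 6 eef- genes, 4 had a thresholded summit (66.7%, 22.3 to 95.7%), and 4 of the 33 initiation factor and eIF5A genes had one (12.1%, 3.40 to 28.2%), against 2.80% of the other protein-coding genes. All 6 eef- genes had candidates, counted anywhere in the window, in the pooled list and in both replicates. Their median pooled signal was 179, against 74.9 over the 21 initiation factor and eIF5A genes with a pooled candidate. The 2 shares rest on few genes and their intervals overlap. The split into eef- genes and all others was not planned and was chosen after seeing the data. It goes by name and leaves the eIF5A genes, with the highest peak at iff-2, outside the elongation factors.

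The gene eef-2 encodes eEF2, the GTPase that drives translocation. It lies on the plus strand of chromosome I from 9163531 to 9166952 (ce11, Ensembl annotation). Its peak, at chrI:9163278-9163707, had its summit 38 bp upstream of the 5′ end and a pooled signal of 217 (rank 315). The replicate signals were 98.5 (rank 457) in replicate 1 and 115 (rank 288) in replicate 2. Both replicates thus placed eef-2 among their 945 strongest candidates.

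The gene eef-1G encodes the gamma subunit of eEF1, which anchors the exchange factor complex. It lies on the plus strand of chromosome V from 10965719 to 10967922. Its peak, at chrV:10965460-10965889, had a signal of 212 (rank 335) and a summit 44 bp upstream of the 5′ end. Replicate 1 gave 109 (rank 340) and replicate 2 gave 99.0 (rank 455). The eef-2 and eef-1G summits were the closest to a 5′ end among the 8, and the 2 signals differed by little beside the range of 148 to 402.

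The genes eef-1A.1 (III 6970026 to 6971712, minus strand) and eef-1A.2 (X 7823654 to 7825769, plus strand) both encode eEF1A, the tRNA carrier. At eef-1A.1 the peak chrIII:6971895-6972324 had a signal of 189.6 (rank 441) with its summit 398 bp upstream. At eef-1A.2 the peak chrX:7823044-7823473 had a signal of 169 (rank 575) with its summit 395 bp upstream. Measured from the eEF1A genes, the 2 summits on different chromosomes thus lay at nearly the same distance, and both were outside the annotated gene. The eef-1A.1 summit was nearer to rfc-4 on the opposite strand, 143 bp upstream of it. Replicates differed at eef-1A.2 more than at any other of the 8, with 53.2 (rank 3146) in replicate 1 and 111 (rank 322) in replicate 2. At eef-1A.1 they gave 98.4 (rank 458) in replicate 1 and 83.9 (rank 711) in replicate 2. The 430 bp intervals of the paralogs shared no run of bases longer than 12 bp. The eef-1A.1 summit lay 25 bp from the annotated miRNA gene cel-mir-5549, and the eef-1A.2 summit lay 126 bp from the noncoding RNA gene R03G5.8, whose part in these peaks was not tested.

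The remaining elongation factor genes, eef-1B.1 and eef-1B.2, belong to the nucleotide exchange complex and had no thresholded summit. The pooled signal of eef-1B.1 was 90.1 (rank 3909), with 41.7 (rank 7863) in replicate 1 and 49.8 (rank 4144) in replicate 2. That of eef-1B.2 was 46.2 (rank 26788), with 25.9 (rank 27147) in replicate 1 and 36.4 (rank 11896) in replicate 2. The summits of eef-1B.1 lay at different places in the 3 lists, 558 bp upstream in the pool, 268 bp in replicate 1 and 677 bp in replicate 2. Those of eef-1B.2 lay 57 bp upstream in the pool, 623 bp in replicate 1 and 67 bp in replicate 2. Within the eEF1 complex, then, the windows of the genes for eEF1A and the gamma subunit held a thresholded summit and those of the exchange subunits did not. The gene eef-1B.2 starts 295 bp after the end of fcd-2 on the same strand, close enough for an operon. A promoter shared with fcd-2 could lie outside the window scored for eef-1B.2.

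The highest peak of all 39 genes stood at iff-2, which encodes eIF5A. In worms iff-1 is known as the germline eIF5A gene and iff-2 as the somatic one. The iff-2 gene lies on the minus strand of chromosome II from 8559375 to 8561367, and its peak was chrII:8561335-8561531, 197 bp wide. Its pooled signal was 402 (rank 69), with 192 (rank 81) in replicate 1 and 204 (rank 61) in replicate 2. The summit fell on the same base in all 3 lists, 72 bp upstream of the 5′ end. Of the other protein-coding genes, 0.271% had a higher pooled signal.

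The germline paralog iff-1 had a pooled signal of 57.8 (rank 16524), no candidate in replicate 1 and 57.1 (rank 2495) in replicate 2. Its summit lay 766 bp upstream in the pool. The eIF5A genes therefore stood far apart in the pooled list of these whole larvae. The third gene of the group, eif-6, encodes a factor that keeps the ribosomal subunits apart. It had a pooled signal of 94.3 (rank 3280) at 892 bp upstream, with 38.5 (rank 10275) in replicate 1 and 59.6 (rank 2155) in replicate 2.

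The DNA around the summit is given for the strongest peak, iff-2, and for the elongation factor peaks eef-1G, eef-1A.1 and eef-1A.2. Each is read from the RefSeq genome sequence of the same build and written in the direction of the gene. A stretch stops at the annotated 5′ end of its gene where it reaches it, and capitals mark the 21 bases centred on the pooled summit. The stretches cover chrII:8561368-8561539 on the minus strand, chrV:10965575-10965718 on the plus strand, chrIII:6972010-6972210 on the minus strand and chrX:7823159-7823359 on the plus strand.
iff-2: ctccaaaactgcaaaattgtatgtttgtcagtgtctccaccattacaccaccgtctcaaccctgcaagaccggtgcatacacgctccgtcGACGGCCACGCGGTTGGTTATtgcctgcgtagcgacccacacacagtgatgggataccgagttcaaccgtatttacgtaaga
eef-1G: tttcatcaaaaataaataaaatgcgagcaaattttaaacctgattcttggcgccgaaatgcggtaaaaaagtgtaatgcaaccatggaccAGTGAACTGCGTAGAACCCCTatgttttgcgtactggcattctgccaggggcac
eef-1A.1: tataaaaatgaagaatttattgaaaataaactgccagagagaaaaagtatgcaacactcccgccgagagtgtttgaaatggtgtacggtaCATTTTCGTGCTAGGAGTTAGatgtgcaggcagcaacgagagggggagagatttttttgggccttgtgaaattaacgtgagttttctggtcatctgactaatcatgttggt
eef-1A.2: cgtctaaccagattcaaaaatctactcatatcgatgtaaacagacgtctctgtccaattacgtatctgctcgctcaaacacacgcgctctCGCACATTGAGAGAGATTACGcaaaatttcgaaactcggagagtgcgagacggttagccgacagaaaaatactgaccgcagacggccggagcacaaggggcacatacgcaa
The iff-2 and eef-1G stretches end at the base before the annotated gene, while the eEF1A stretches run from 498 to 298 bp upstream for eef-1A.1 and from 495 to 295 bp upstream for eef-1A.2. Part of the eef-1A.1 stretch lies in the annotated miRNA gene cel-mir-5549.

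No sequence word was common to the 8 peaks among those searched. The words GAGACGCA and GCGCCAGC, read on both strands within 100 bp of the summit, stood at 9.52% and 4.44% of all 945 thresholded peaks and at 2.59% and 0.386% of the windows of the same length just upstream of all protein-coding genes. Neither was found at any of the 8 translation factor summits. Both words, and the shorter words within them, were chosen with earlier results of these data known. Their excess among all peaks over upstream windows is therefore not independent of that choice. The shorter word GACGC, which lies within GAGACGCA, was at 1 of the 8 (eif-3.C), against 36.7% of all peaks and 12.8% of upstream windows. Over the whole peak interval it was at 3 of the 8, against 50.1% of all peaks. GCGCC, which lies within GCGCCAGC, was at 3 of the 8 (eef-2, eif-3.C and eef-1G), against 34.6% of all peaks and 9.41% of upstream windows. In the printed sequences, GCGCC is seen in eef-1G, where it overlaps its own reverse complement. The word CTGCGTAG was noticed in the printed iff-2 and eef-1G sequences and chosen after they were seen. It begins 14 bp downstream of the summit base at iff-2 and 4 bp upstream of it at eef-1G, and it was found at 2 of the 8 peaks, 1.59% of all peaks and 0.140% of upstream windows. The median GC content within 100 bp was 41.3% (35.3 to 50.2%) at the 8 summits and 45.8% over all 945 peaks. With 8 peaks, these counts describe letters and say nothing of what bound there.

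The eIF3 complex, the scaffold of initiation, had 2 thresholded summits among 11 genes (18.2%, 2.28 to 51.8%) and pooled candidates at 7. Their median pooled signal was 96.8. The gene eif-3.C encodes a core subunit and lies on the minus strand of chromosome I from 9976426 to 9979662. Its peak, at chrI:9979847-9980003, had a signal of 297 (rank 136) and a summit 242 bp upstream. Replicate 1 gave 156 (rank 136) and replicate 2 gave 135 (rank 193), so both libraries placed it high. Its 5′ end lies 401 bp downstream of the end of sys-1 on the same strand, which is close enough for an operon, and the summit falls in the gap between the genes.

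The eIF3 subunit gene eif-3.I (I 2485861 to 2489787, plus strand) had the lowest peak of the 8. The interval chrI:2485360-2485789 had a signal of 148 (rank 798) with a summit 286 bp upstream. In replicate 1 the signal was 69.6 (rank 1172) at 285 bp upstream. In replicate 2 the strongest candidate of the window was 75.2 (rank 992) at 397 bp upstream, and the candidate nearest to the pooled summit was 93 bp away with 58.4 (rank 2301). The gene was thus outside the 945 strongest of either replicate, and its −log10 q of 2.09 was below that of the other 7.

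The other eIF3 genes lay below the threshold. Of these, eif-3.E had a pooled signal of 101.1 (rank 2541), eif-3.B had 96.8 (rank 3004) and eif-3.H had 93.2 (rank 3430). For eif-3.E the replicates were apart, with 35.7 (rank 12932) in replicate 1 and 69.4 (rank 1272) in replicate 2. For eif-3.B the order was the other way, with 59.2 (rank 2082) in replicate 1 and 45.4 (rank 5820) in replicate 2. For eif-3.H the values were 42.6 (rank 7260) in replicate 1 and 38.9 (rank 9705) in replicate 2. The subunit genes eif-3.K and eif-3.L had no candidate in any list, and eif-3.F and eif-3.G had one in a single replicate, so peaks were spread unevenly over the genes of 1 complex. The eif-3.G gene had a thresholded summit of signal 269 just outside its window, 1042 bp upstream.

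Genes for eIF2, which carries the initiator tRNA, its exchange factor eIF2B and the related eif-2A and eif-2D had 1 thresholded summit among 10 (exact interval 0.253 to 44.5%). Pooled candidates were found at 5 of them, with a median of 47.1. The gene eif-2Bgamma (II 6965800 to 6967648, minus strand) encodes a subunit of eIF2B, and its peak chrII:6968092-6968521 had a signal of 203 (rank 370). Replicate 1 gave 116 (rank 292) and replicate 2 gave 91.3 (rank 562). The summit lay 659 bp upstream, farther than any other of the 8. It fell inside C15F1.5, a gene on the same strand that ends 252 bp before eif-2Bgamma, and 87 bp from the snRNA gene sup-39. Their part in the peak was not tested, although no other protein-coding gene started nearer to the summit than eif-2Bgamma.

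Among the eIF2 subunit genes themselves, none of 3 had a thresholded summit. The gamma subunit gene eif-2gamma had 74.2 (rank 7850), with 25.9 (rank 27239) in replicate 1 and 69.5 (rank 1267) in replicate 2. Its pooled summit lay 849 bp upstream of eif-2gamma and 74 bp upstream of tbca-1. The gene tbca-1 is on the same strand and ends 313 bp before eif-2gamma, which is close enough for an operon. Whether the 2 genes share a promoter was not tested. The strongest summit was 354 bp upstream of eif-2gamma in replicate 1 and 976 bp in replicate 2. The alpha subunit gene eif-2alpha, which carries the phosphorylation site through which stress lowers initiation, had 43.7 (rank 29621) in the pool and no candidate in either replicate. The pooled summit of eif-2alpha lay 933 bp upstream. The beta subunit gene eif-2beta had no candidate in any list. The genes eif-2A, eif-2D and eif-2Bepsilon also had none. The value of eif-2alpha was close to that of the weakest pooled candidate at any other gene, 43.4.

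Genes grouped by name as cap binding and eIF4 had signal below the threshold only. None of these 7 genes had a thresholded summit (0%, 0 to 41.0%), although 6 had a pooled candidate, with a median of 62.5. The group includes eif-4A3 by its name, and these data do not show a part of eif-4A3 in mRNA recruitment. The 5 ife- genes alone all had a pooled candidate, with a median of 59.6. The highest of the 7 was ife-3, for an eIF4E form that binds the mRNA cap, with 115 (rank 1626) in the pool. Replicate 1 gave ife-3 58.4 (rank 2182) and replicate 2 gave it 56.0 (rank 2694). Its summit lay 876 bp upstream of ife-3 and 35 bp inside the neighbouring gene B0348.10. The other ife- genes ran from 45.7 for ife-5 to 75.4 for ife-2. The gene ifg-1, for the eIF4G scaffold, had no candidate in any list. The genes eif-1 and eif-1.A, whose products help the ribosome find the start codon, had no pooled candidate, and eif-1 had a candidate of 25.1 (rank 28648) in replicate 2 only.

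In all, 8 of the 39 genes had no candidate in any of the 3 lists, and 31 (79.5%) had at least 1, against 46.4% of other genes. The 8 without were eif-1.A, eif-2A, eif-2beta, eif-2Bepsilon, eif-2D, eif-3.K, eif-3.L and ifg-1. All of them are initiation genes, but so are most of the 39, of which 33 are initiation factor and eIF5A genes. A missing candidate means only that no interval there was among the 30000 strongest.

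**Figure D2:**
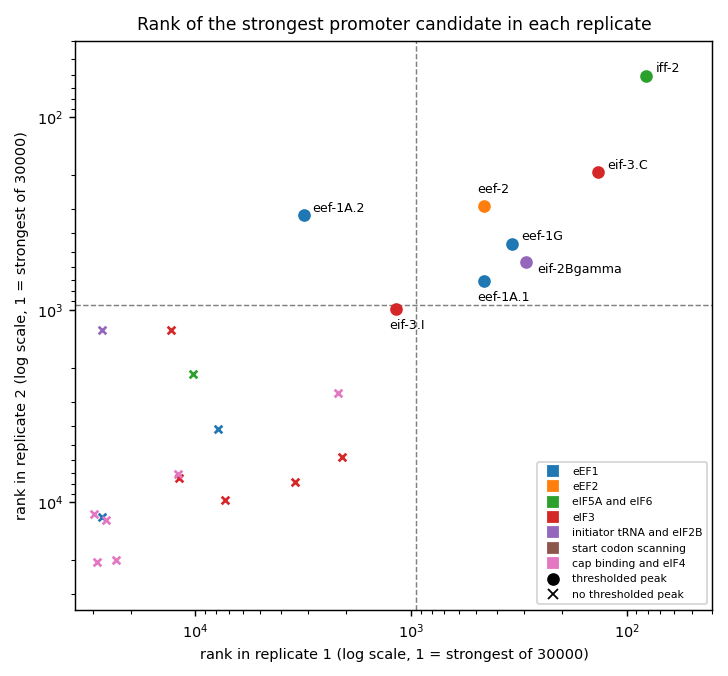
Rank of the strongest candidate in the promoter window in replicate 1 (horizontal axis) and replicate 2 (vertical axis), both log scales with the strongest at the right and top, for the 23 genes with a candidate in both. Circles are genes with a thresholded summit, crosses the others, and dashed lines mark rank 945, beyond which eef-1A.2 falls in replicate 1 and eif-3.I in both.

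The ranks in the 2 replicates are given as a description, since the thresholded set was made from the same lists and its genes had to rank high. Of the 8 genes with a thresholded summit, 6 were among the 945 strongest candidates of both replicates, and eef-1A.2 was there in replicate 2 only. None of the 31 genes without one was among the 945 strongest of either replicate, the closest being eif-2gamma at rank 1267 in replicate 2. Over the 23 genes with a candidate in both replicates, Spearman's rho of the strongest signals was 0.80, and over 3996 other genes it was 0.54. The 23 include the 8 genes with a thresholded summit, a larger share than the 558 such other genes could be of the 3996. A wider range of signals can raise rho, so the 2 values do not show better agreement between replicates at the translation factor genes. The strongest signals were taken wherever they lay in the window of each replicate. These are descriptions across genes, which share the libraries and the control.

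The 8 summits lay closer to the 5′ end than the weaker candidates, in these counts. All 8 summits were upstream of the 5′ end (0 were downstream), as were 92.3% of those of other genes with a thresholded summit, and their median distance was 264 bp, against 263 bp for the other genes. Of the 8, 7 lay within 500 bp of the 5′ end, against 73.8% of other genes with a thresholded summit. Of the 19 translation factor genes with a pooled candidate but no thresholded summit, 9 had the strongest one within 500 bp (47.4%), against 65.3% of the 5944 other genes of that class. Their median distance was 558 bp upstream, against 294 bp for those other genes. At 9 of these 19 summits no other gene started nearer (47.4%), against 82.1% for the other genes of the class, so 10 of the weak candidates lay nearer to a neighbour. No translation factor gene had a thresholded summit in its body beyond the window (0 of 39, against 1.48% of other genes).

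**Figure D3:**
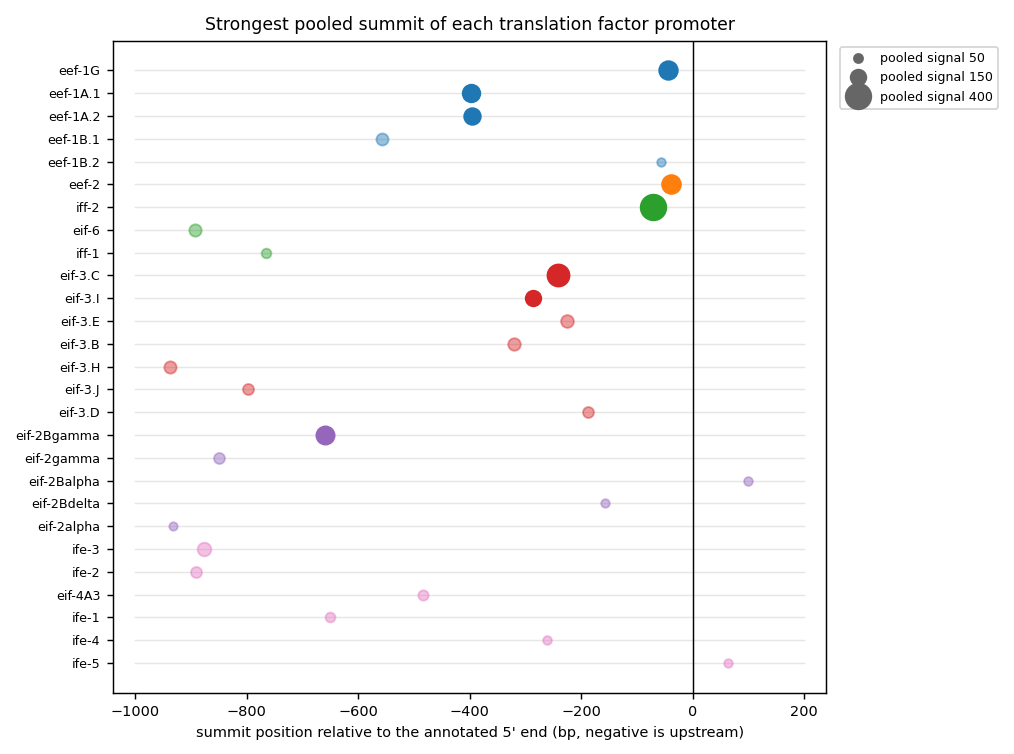
Position of the strongest pooled summit relative to the annotated 5′ end (horizontal axis, bp, negative is upstream) for the 27 genes with a pooled candidate, in the role order and colours of the signal plot. Circle area is proportional to pooled signal and full colour marks a thresholded summit, which lie from 38 to 659 bp upstream.

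Several of the peaks stood between divergent genes. At 5 of the 8 the summit also lay in the promoter window of a gene on the opposite strand and upstream of both genes, against 229 of 558 (41.0%) for other genes with a thresholded summit. The eef-2 summit was 227 bp upstream of clsp-1, the gene for the replication checkpoint protein claspin. The eef-1G summit was 136 bp upstream of ctf-4, a gene named for its yeast counterpart in DNA replication. The eef-1A.1 summit was 143 bp upstream of rfc-4, for a subunit of the clamp loader of DNA replication, and that was nearer than eef-1A.1 itself. The eif-3.I summit was 184 bp upstream of abtm-1, for a mitochondrial ABC transporter, also nearer than eif-3.I. The iff-2 summit was 863 bp upstream of F54C9.14. From a peak alone, the 2 genes on either side cannot be told apart as targets. The translation factor had the nearest 5′ end at 6 of the 8, against 73.3% for the other genes.

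Operon arrangement and chromosome were also recorded. Of the 39 genes, 7 were operon-like, meaning that they start within 500 bp of the end of a gene on the same strand, against 18.1% of other genes. Among the 8, this held for eif-3.C and eif-2Bgamma (2 of 8, against 18.5%). It also held for eef-1B.2, eif-2alpha, eif-2gamma, eif-3.F and ife-5, which had no thresholded summit. For such genes a promoter shared with the gene before could lie outside the window, so a missing peak there is less telling. A tRNA, snRNA or snoRNA gene lay within 200 bp of 1 of the 8 summits, that of eif-2Bgamma, against 13.6%. Chromosome I held 12 of the 39 genes, against 14.4% of other genes, and X held 3, against 13.7%. The median gene length was 2152 bp, against 2026 bp.

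The share with a peak ran widely over other lists of translation genes. Small-subunit ribosomal protein genes had a thresholded summit at 12 of 31 (38.7%, 21.8 to 57.8%) and large-subunit ones at 14 of 50 (28.0%, 16.2 to 42.5%), and both intervals overlap that of the factors. Some peaks count in both ribosomal lists, since rpl-36 and rps-14 share a summit, as do rpl-24.1 and rps-10. Aminoacyl-tRNA synthetase genes, cytosolic and mitochondrial together, had 1 of 31 (3.23%, 0.0816 to 16.7%). That gene was ears-2, whose summit also lies in the window of uncp-18. Genes for termination and mRNA binding had 1 of 8, ifet-1, whose summit also lies in the window of rps-1. Genes for translation control had 2 of 18, rheb-1 and fib-1, whose summits also lie in the windows of spk-1 and mut-15, respectively. Mitochondrial translation factors had 0 of 4. These lists are described by their counts beside the 2.80% of other genes, with no test between them.

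**Figure D4:**
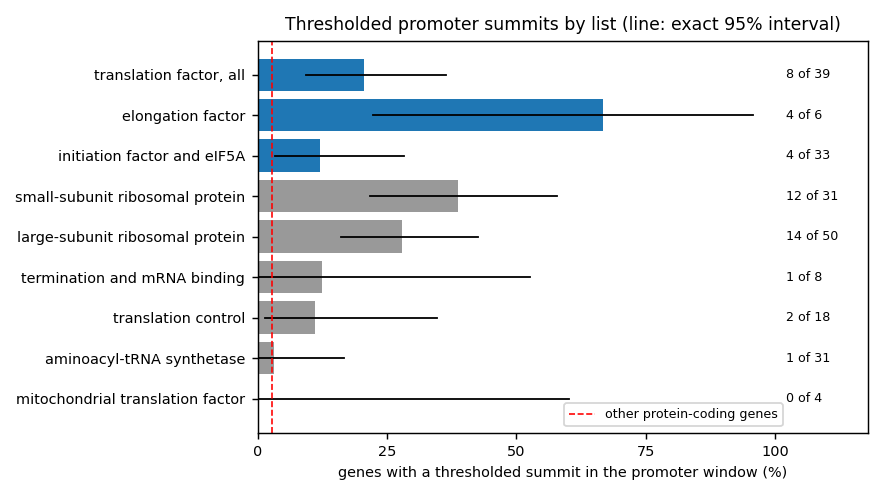
Share of genes (horizontal axis, percent) with a thresholded summit in the promoter window, for the translation factor genes and their subgroups (blue) and for other lists of translation genes (grey). Black lines are exact 95% binomial intervals, the counts stand at the right, and the dashed line is the 2.80% of other protein-coding genes, with elongation factors highest at 66.7% and mitochondrial factors at 0 of 4.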

How the data were processed

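ChIP-seq was deposited for 2 biological replicates of 1 group. The authors deposited narrowPeak lists on ce11 that give, per interval, a peak signal and a −log10 q-value. Per the deposited notes, the candidate lists were made as input for IDR and the thresholded set from all 3 of them. No source used here names the aligner, the peak caller or the IDR cutoff. The deposited lists hold no read counts, so depth is unknown.

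Summits (start plus offset, 1 replicate 2 offset lying outside its interval) were assigned with Python 3.11.15 to every protein-coding gene of Ensembl release 115 (WBcel235) whose window, 1000 bp before to 200 bp after the 5′ end, held them, and each gene took its highest signal. Scoring was tested on simulated data. Shares carry exact 95% binomial (Clopper-Pearson) intervals (scipy 1.17.1), which cover counting error only, and medians an interval from order statistics. Figures used matplotlib 3.10.9. No test over lists was made and no p-value was computed.

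Members, lists and words were chosen with earlier results of these data known. The genes named were all with a thresholded summit, the 5 highest without one, all without any candidate, and the highest of each role. Other genes named, the factors under other names, and the split into eef- genes and all others were chosen after their values were seen. Alternatives covered the window, the transcript ends, the nearest gene, operon-like genes, small RNA genes, the threshold and each replicate.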

Additional observations from a re-analysis of the deposited data

How the results depend on the processing

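The count of translation factor genes with a thresholded summit was 8 and stayed between 6 and 9 under every alternative run, while other genes ran from 1.60 to 3.82%. Using the 945 strongest candidates of a single replicate gave 6 and 7 genes, and eif-3.I was lost in both, eef-1A.2 when replicate 2 was left out. A window of 2000 bp upstream, or overlap of the interval, added eif-3.G. Counting the nearest gene alone gave 6, without eef-1A.1 and eif-3.I, and a window of 500 bp lost eif-2Bgamma. The elongation factor group, which was chosen after seeing the data, had 3 or 4 genes under the same alternatives.

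Pooled candidates were found at 27 genes and at 24 and 29 with a single replicate. Counting the nearest gene alone moved this to 16 of 39, against 27.2% of other genes. Candidates in both replicates moved from 23 genes to 13 with a window of 500 bp, against 12.6% of other genes, and to 13 with the nearest gene alone, against 15.6%. The median pooled signal of 90.1 ran from 59.6, with genes without a candidate at 0, to 93.2. Of 91 values sought for 13 named genes, 12 were lost with the summit or the gene and the other 79 were the same summits, whose signal does not depend on these choices. The nearest gene alone lost eef-1A.1, eif-3.I, ife-3, eif-6 and eif-3.H, and a window of 500 bp lost eif-2Bgamma, ife-3, eif-6 and eif-3.H. Leaving out operon-like genes removed eif-3.C and eif-2Bgamma, and leaving out summits near small RNA genes removed eif-2Bgamma. The word GACGC was at 3 of 8 peaks over the whole interval, against 1 of 8 near the summit. No paired analysis was possible because there is 1 group. Libraries with no depth given, and 39 genes, limit the precision.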

Other observations

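Factors of initiation that carry other names were looked at after the values were seen. Of 5, drr-2, an eIF4H-like gene, had a thresholded summit with a pooled signal of 565 (rank 30), above iff-2 at 402 (rank 69), in a window shared with the histone methyltransferase gene set-16. The eIF3 subunit gene cif-1 had 89.4 (rank 4001), and egl-45 (eIF3), inf-1 (eIF4A) and iffb-1 (eIF5B) had no pooled candidate.

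Below the threshold, pooled summits of the translation factor genes were in the window of another gene at 8 of 19, against 22.0% of other genes of that class. At ife-3, eif-4A3 and ife-1 that summit fell inside the first bases of the neighbour, B0348.10, vps-20 and dro-1.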
